A study of Homo sapiens with 18 samples.

Results

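The genes described are 34 genes of glycolysis, lactate and pyruvate metabolism, out of 40266 gene symbols in the expression table. They cover glucose import, the glycolytic steps, lactate formation and transport, and the control of pyruvate entry into mitochondria. They were chosen by gene symbol as a biological module, at a time when earlier results of these data were known, so the counts over the list are a description and lend no independent support. All 34 were found, and all passed the filter for testing of at least 1 TPM in at least 3 libraries, which 16093 genes passed in all.

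The 18 libraries were RNA-seq of human pancreatic ductal adenocarcinoma (PDAC) lines. Panc1, from a primary tumour, serves as a mesenchymal-like model, and Panc89, from a lymph node metastasis, as an epithelial one. Each line was measured as parental cells, as a Holoclone and as a Paraclone, with 3 replicates in each of the 6 groups. Holoclone and Paraclone cells were each grown from a single cell picked by colony form, with compact, round Holoclone colonies as the stem-like type and loose, irregular Paraclone colonies as the more differentiated type. The labels name no treatment and no introduced allele, all groups grew in the same medium, which contains pyruvate, and the replicates are 3 passages of the same cells. Each clone group is therefore 1 clone, and a Holoclone against Paraclone difference cannot be told apart from a difference between any pair of clones.

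Glycolysis splits glucose into pyruvate. Glucose enters through SLC2A transporters, is trapped by hexokinases, committed by phosphofructokinase and split by aldolase, and the payoff steps from GAPDH to PKM return ATP. Pyruvate is then either reduced to lactate by lactate dehydrogenase and exported by monocarboxylate carriers, or oxidised in mitochondria by pyruvate dehydrogenase, which the PDK kinases switch off. Pancreatic cancer cells are known for high glucose use with lactate release, and hypoxia, through HIF1A, is a well known inducer of many of these genes.

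Levels are given as TPM, the transcript's share of all transcripts in a library after correction for length, so a level that can be compared between genes. Differences are between group means of log2(TPM + 1), ± SE, with n = 3 libraries per group and Benjamini-Hochberg adjusted p from limma over all 16093 genes. A gene past an adjusted p of 0.05 is called higher or lower. Because 1 is added to each TPM, this scale shrinks the differences of genes with low TPM. No counts were available, so the depth behind each value is unknown. In bulk RNA, fewer cells with a transcript and less of it per cell cannot be told apart.

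The summed level of the 34 genes was lowest in the Panc1 Holoclone libraries, at 8578, 9537 and 9063 TPM. In Panc1 Paraclone libraries it was 17310, 14148 and 13494 TPM, and in parental Panc1 libraries 11569, 16238 and 12270 TPM. The sums thus did not overlap between the 3 Panc1 Holoclone libraries and the other 6 Panc1 libraries. In Panc89 the sum was 14481, 16950 and 14886 TPM in parental, 17464, 12812 and 11735 TPM in Holoclone and 11189, 18710 and 13082 TPM in Paraclone libraries. These Panc89 groups overlapped, with replicate 1 of the Holoclone and replicate 2 of the Paraclone far above their partners. Across libraries the 34 genes made up 0.870% to 1.90% of the TPM in the table, and the 5 most abundant genes of each library held 65.8% to 76.9% of that sum. Averaged over all libraries, the most abundant member was GAPDH at 4002 TPM, followed by ENO1 at 2020 TPM, ALDOA at 1535 TPM and PKM at 1070 TPM, and the least abundant was PDK3 at 2.06 TPM.

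**Figure D1:**
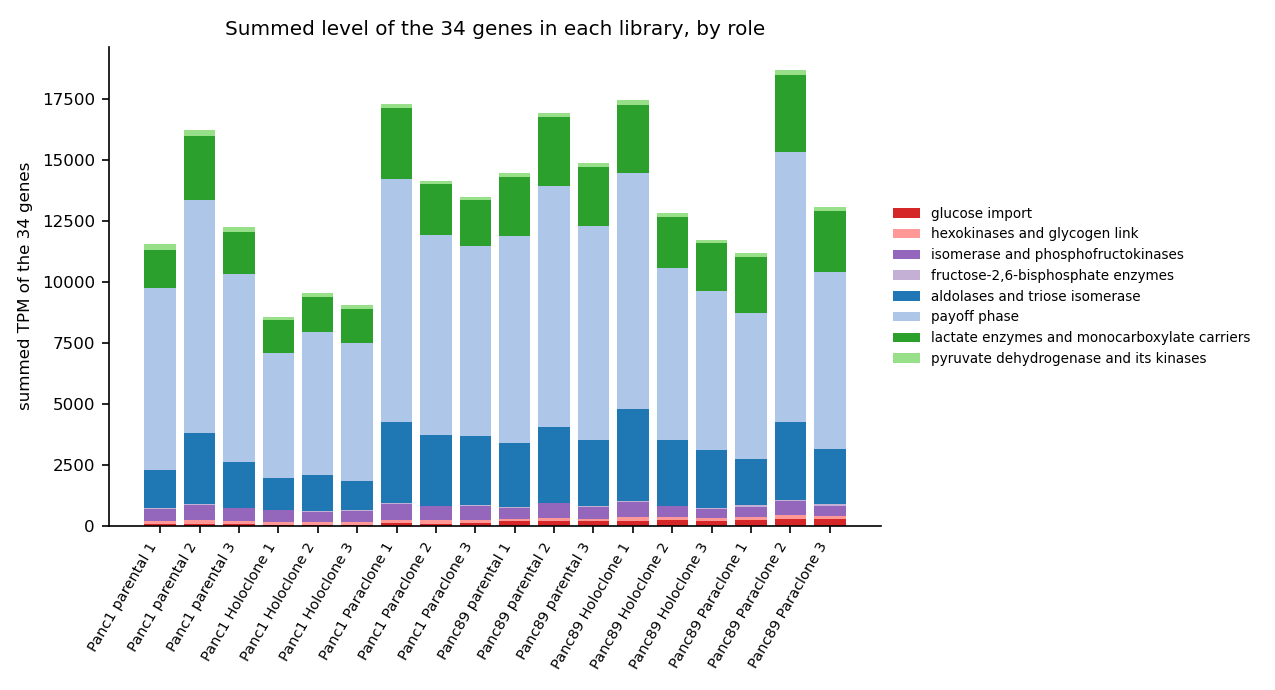
Stacked bars give the summed TPM of the 34 genes in each of the 18 libraries, split by role. The 3 Panc1 Holoclone bars, between 8578 and 9537 TPM, are the lowest of the plot, and the Panc89 Holoclone and Paraclone bars spread from 11189 to 18710 TPM.

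The spread between replicates differed between groups. The median SD of a member on the log2(TPM + 1) scale was 0.336 in Panc89 Holoclone and 0.323 in Panc89 Paraclone libraries, against 0.123 in parental Panc89, and 0.217, 0.218 and 0.128 over all genes tested in the same groups. In Panc1 the member medians were 0.210 in parental, 0.143 in Holoclone and 0.135 in Paraclone libraries. The lines mostly matched their labels. Of 6 epithelial markers, 4, 4 and 3 were called higher in Panc89 and 1, 2 and 0 lower, in parental, Holoclone and Paraclone cells. Of 3 mesenchymal-like markers, 0, 0 and 1 were called higher and 2, 3 and 2 lower. The shares over all genes are given with the line differences below. VIM, a mesenchymal filament gene, stood at 2021 to 2854 TPM in Panc1 Holoclone and at 0.0618 to 0.176 TPM in Panc89 Holoclone libraries. CDH1, the epithelial cadherin, stood at 0.671 to 1.49 and 88.7 to 107 TPM in the same groups. VIM and CDH1 go with the labels and do not stand for the markers called the other way. Summed, the epithelial markers were at 2639 to 3734 TPM in Panc1 Holoclone and 4016 to 4437 TPM in Panc89 Holoclone libraries. In parental Panc1 libraries their sum was 2702 to 5026 TPM, which overlaps the Panc89 Holoclone range. The summed mesenchymal-like markers were at 2049 to 2887 TPM in Panc1 Holoclone and 6.52 to 12.1 TPM in Panc89 Holoclone libraries. Among markers of other cell types, 1 of 6 fibroblast, 1 of 5 immune and 2 of 3 endothelial markers passed the filter. The summed fibroblast markers ranged from 1.34 to 27.4 TPM and the immune markers from 0.145 to 5.96 TPM. The summed endothelial markers reached 55.2 to 69.1 TPM in parental Panc89 libraries and at most 8.90 TPM elsewhere. Their part in the line differences was not tested.

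In Panc1, Holoclone cells held lower levels than Paraclone cells of members at several steps of the pathway, among them the glucose transporter SLC2A1, hexokinase HK2, the aldolases, GAPDH, PKM, LDHA and the lactate exporter SLC16A3. TPI1, PGAM1, ENO1, the main hexokinase HK1 and the main phosphofructokinase PFKP were not called. Of the 34 members, 17 (50%) were called lower, where 9.97% of all genes tested were, and 4 (11.8%) were called higher, where 27.4% of all genes tested were. The median member difference was −0.52, beside 0.19 over all genes tested. The 4 members that were higher were the hexokinase-like HKDC1, PFKFB2, the muscle enolase ENO3 and the kinase PDK2. Rescaling the TPM moved the calls of all genes to the lower side, the members with them. All genes tested went from 4402 higher and 1604 lower to 2642 and 2512 under upper quartile and 2440 and 2672 under median-of-ratios scaling, with an all-gene median of 0.01 and 0. The members then had 3 higher and 19 lower, and 2 higher and 20 lower.

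**Figure D2:**
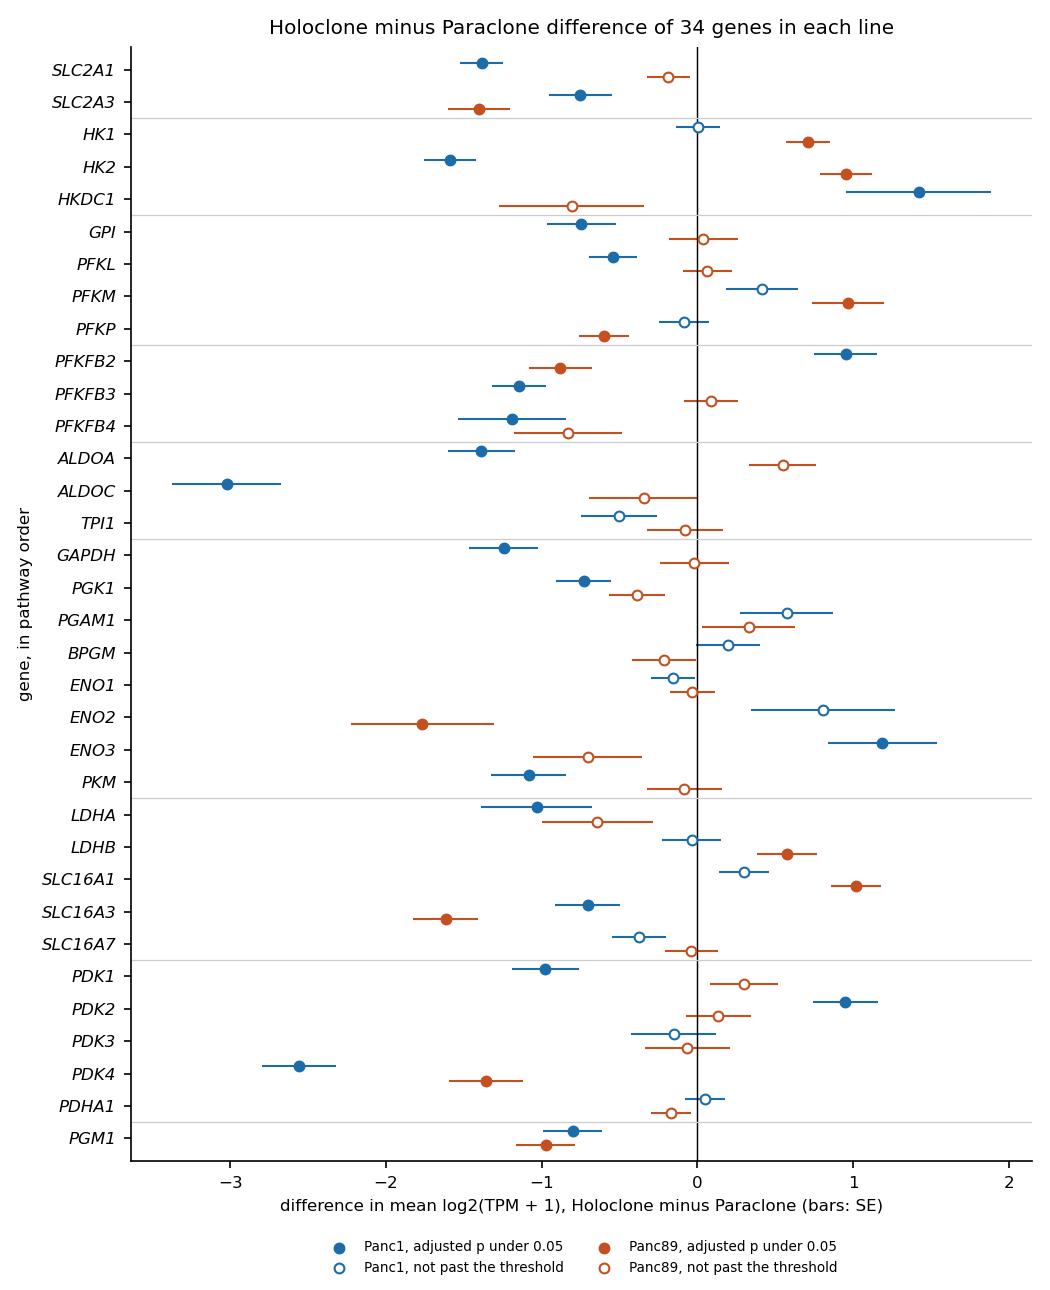
Points give the Holoclone minus Paraclone difference in mean log2(TPM + 1) for the 34 genes in pathway order, with Panc1 in blue, Panc89 in orange-red, bars for the SE, and filled points past an adjusted p of 0.05. In Panc1 17 filled points lie below 0 and 4 above, against 7 and 5 in Panc89.

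SLC2A1, the widely expressed GLUT1 glucose transporter, measured 31, 40.5 and 24.8 TPM in Panc1 Holoclone libraries and 87.3, 79.7 and 84.8 TPM in Panc1 Paraclone libraries. Every Holoclone library was below every Paraclone library, a difference of −1.38 ± 0.14 (adjusted p = 1.5e-06). Its relative SLC2A3 (GLUT3) was near or under 1 TPM in Panc1, at 0.212, 0.232 and 0.159 TPM in Holoclone and 0.793, 1.16 and 1.14 TPM in Paraclone libraries, and was also called lower, at −0.75 ± 0.20 (adjusted p = 0.00802). This second call depends on how reads were shared with near-identical copies: pseudogenes and paralogs named after SLC2A3 held 0% to 97.2% of the summed TPM, and adding them turned the difference to 0.91 (adjusted p = 0.112).

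HK2, the inducible hexokinase, showed 3.33, 2.69 and 3.38 TPM in Panc1 Holoclone against 10.3, 11 and 12.9 TPM in Paraclone libraries, without overlap, and a difference of −1.59 ± 0.17 (adjusted p = 2.76e-06). HK1, the housekeeping form and the most abundant hexokinase in Panc1, did not pass the test, with 0.00 ± 0.14. HKDC1 ran the other way, at 1.19, 6.0 and 3.54 TPM in Holoclone and 0.376, 0.834 and 0.445 TPM in Paraclone libraries, a difference of 1.42 ± 0.47 (adjusted p = 0.025). The spread within the Holoclone group was wide, and without Panc1 Holoclone replicate 2 the value was 1.04 (adjusted p = 0.123). The call was also lost without Holoclone replicate 3 (1.35, adjusted p = 0.0727) and without Paraclone replicates 1 and 3 (1.34 and 1.37, adjusted p = 0.0663 and 0.066). PGM1, which links glucose 6-phosphate to glycogen, was lower, at −0.80 ± 0.19 (adjusted p = 0.00346).

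Among the enzymes around the committed step, GPI, the isomerase, was lower, at −0.75 ± 0.22 (adjusted p = 0.0146) and PFKL, the liver-type phosphofructokinase, at −0.54 ± 0.16 (adjusted p = 0.0121). GPI lost the call without Panc1 Paraclone replicate 1 (−0.67, adjusted p = 0.0504), and PFKL without Panc1 Holoclone replicate 3 (−0.49, adjusted p = 0.0518). PFKM, the muscle form, and PFKP, the platelet form, did not pass, at 0.41 ± 0.23 and −0.09 ± 0.16. The 3 enzymes that make or remove fructose 2,6-bisphosphate, the activator of phosphofructokinase, split in direction. PFKFB3, the form with high kinase activity, stood at 10.9, 8.72 and 8.68 TPM in Holoclone and 24.5, 20.4 and 21.3 TPM in Paraclone libraries, lower, at −1.15 ± 0.17 (adjusted p = 9.51e-05). PFKFB4 was lower, at −1.19 ± 0.34 (adjusted p = 0.0127). PFKFB2 stood at 19, 15.1 and 19.1 TPM against 6.65, 8.45 and 11.4 TPM and was higher by 0.95 ± 0.20 (adjusted p = 0.00153).

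Both aldolases were lower. ALDOA, the main aldolase, was measured at 877, 1032 and 838 TPM in Panc1 Holoclone and 2583, 2283 and 2303 TPM in Panc1 Paraclone libraries, a difference of −1.39 ± 0.22 (adjusted p = 0.000131). ALDOC, the form named for brain, was at 4.51, 6.17 and 3.40 TPM against 22.2, 51.2 and 75.8 TPM, the lowest difference of all members in this comparison at −3.02 ± 0.35 (adjusted p = 7.89e-06). The groups did not overlap for either gene, and replicate 1 of the Paraclone was the lowest of its group for ALDOC. TPI1, which interconverts the triose products, did not pass, with −0.50 ± 0.24.

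In the payoff phase GAPDH, PGK1 and PKM were lower and the enolases and mutases were not. GAPDH, the dehydrogenase that makes NADH, was at 1343, 1770.4 and 1410.1 TPM in Panc1 Holoclone and 3709, 3471 and 3468 TPM in Paraclone libraries, a difference of −1.24 ± 0.22 (adjusted p = 0.000396). PGK1, the first ATP-forming kinase, was lower, at −0.73 ± 0.18 (adjusted p = 0.00422), and PKM, which forms pyruvate, at −1.08 ± 0.24 (adjusted p = 0.00232). The PKM libraries were 669.8, 766 and 674 TPM in Holoclone and 2023, 1385 and 1176 TPM in Paraclone cells, with replicate 1 of the Paraclone the highest. ENO1, the abundant enolase, gave 2121, 2337 and 2560.3 TPM against 2989, 2452 and 2389 TPM, and its difference of −0.15 ± 0.14 did not pass. PGAM1, the mutase before enolase, BPGM, the 2,3-bisphosphoglycerate mutase, and ENO2, the neuronal enolase, did not pass either, at 0.57 ± 0.30, 0.20 ± 0.20 and 0.81 ± 0.46. ENO3 was called higher, by 1.19 ± 0.35 (adjusted p = 0.0142), and lost the call under both rescalings (0.96 and 0.93, adjusted p = 0.0607 and 0.0676), without Panc1 Paraclone replicate 1 (0.90, adjusted p = 0.0705) and without Panc1 Holoclone replicate 1 (1.08, adjusted p = 0.0515).

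At the lactate end, LDHA, the form that favours lactate production, was 559.5, 796 and 655 TPM in Panc1 Holoclone and 1939.6, 1241 and 1039 TPM in Panc1 Paraclone libraries. No Holoclone library reached the lowest Paraclone library, and the difference was −1.03 ± 0.36 (adjusted p = 0.032). The call was lost without replicate 1 of the Paraclone (−0.77, adjusted p = 0.132), without replicate 2 of the Paraclone (−1.10, adjusted p = 0.0584) and without replicates 1 and 3 of the Holoclone (−0.91 and −1.02, adjusted p = 0.104 and 0.0755). LDHB, the form that favours pyruvate, did not differ past the threshold, with −0.04 ± 0.19. SLC16A3 (MCT4), the main lactate exporter of glycolytic cells, was 223, 211 and 236 TPM against 398, 360.3 and 335 TPM, lower, at −0.70 ± 0.21 (adjusted p = 0.0143). SLC16A1 (MCT1), the two-way lactate carrier, and SLC16A7 (MCT2), which was at most 0.421 TPM in any Panc1 library, did not pass, at 0.30 ± 0.16 and −0.38 ± 0.17.

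The pyruvate dehydrogenase kinases differed from one another. PDK1, a hypoxia-induced kinase, was lower in Panc1 Holoclone cells at −0.98 ± 0.22 (adjusted p = 0.00216). PDK4, the starvation-induced kinase, was 0.272, 0.162 and 0.212 TPM in Holoclone and 5.21, 6.02 and 7.41 TPM in Paraclone libraries, a difference of −2.56 ± 0.24 (adjusted p = 7.35e-07). PDK2, the kinase with the highest level of the 4, went the other way, at 42.3, 35.9 and 37.9 TPM against 17.9, 19.7 and 21 TPM and 0.95 ± 0.21 (adjusted p = 0.00199). PDK3 and PDHA1, the catalytic subunit on which the kinases act, gave −0.15 ± 0.27 and 0.05 ± 0.13 and did not pass.

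To show the upstream sequence of members that fell together in Panc1 Holoclone cells, the stretch before the start site is printed for 4 of the 5 members with the lowest differences. LDHA is added because its window holds the most matches of the members, and was chosen for that. For ALDOA, the other of the 5, nearly all of the window lies in exons and none is printed. The sequences are RefSeq promoter windows on GRCh38.p14, cut to the longest part outside GENCODE exons, and run 5′ to 3′ on the gene's strand. Capitals mark ACGTG, the core of the hypoxia response element, read on both strands (CACGT on the other). Where CACGTG stands, the E-box read by MYC family factors, it overlaps the core, which is then counted once per strand.
ALDOC, chr17:28576949-28577145, minus strand: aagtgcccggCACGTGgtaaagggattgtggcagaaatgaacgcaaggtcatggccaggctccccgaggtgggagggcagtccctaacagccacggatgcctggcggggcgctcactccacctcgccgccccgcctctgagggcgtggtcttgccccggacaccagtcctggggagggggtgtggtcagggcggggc
PDK4, chr7:95596517-95596669, minus strand: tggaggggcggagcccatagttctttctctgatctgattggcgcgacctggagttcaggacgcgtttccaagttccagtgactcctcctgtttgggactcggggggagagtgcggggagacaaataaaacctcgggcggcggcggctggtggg
HK2, chr2:74833988-74834126, plus strand: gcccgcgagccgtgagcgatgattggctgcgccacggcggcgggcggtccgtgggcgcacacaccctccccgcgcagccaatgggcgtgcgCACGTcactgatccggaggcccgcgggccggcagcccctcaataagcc
SLC2A1, chr1:42958894-42959048, minus strand: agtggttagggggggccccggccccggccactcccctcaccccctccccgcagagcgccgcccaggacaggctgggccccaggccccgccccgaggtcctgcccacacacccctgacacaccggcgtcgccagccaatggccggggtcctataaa
LDHA, chr11:18394313-18394559, plus strand: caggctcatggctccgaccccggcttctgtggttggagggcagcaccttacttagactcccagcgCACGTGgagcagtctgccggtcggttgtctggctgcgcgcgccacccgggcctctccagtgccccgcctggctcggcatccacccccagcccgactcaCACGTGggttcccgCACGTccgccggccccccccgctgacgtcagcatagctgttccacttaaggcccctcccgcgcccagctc
Over the full 250 bases before the outermost start, LDHA held 5 matches, ALDOC 3 and HK2 2, with 1 of those of ALDOC and of HK2 outside the printed stretch, while SLC2A1 and PDK4 held none. GAPDH held 2, and PFKFB3, PFKFB4 and PKM, also lower in Panc1 Holoclone cells, held none.

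A window was found for 31 of the 34 members, all but SLC2A3, PFKFB2 and SLC16A1. Of these, 10 (32.3%) held ACGTG, namely HK2, GPI, ALDOA, ALDOC, GAPDH, PGK1, BPGM, ENO2, LDHA and PDK3. Of 27305 windows of the same length, 1 per gene, 18.6% held it. CACGTG was present in 3 members (9.7%), ALDOC, GAPDH and LDHA, and in 6.5% of all windows. The members' windows were richer in G and C, with a median of 68.4% against 57.6%, and the shares were not compared by a test. Among the 10 members with the core, 7 were lower and 0 higher in Panc1 Holoclone cells, and among the 21 without it, 9 were lower and 3 higher. Over all tested genes with a window, 8.92% of those with the core and 10.7% of those without it were lower. The shares called higher were 31.1% and 28.8%. In Panc89 Holoclone cells 1 of the 10 was lower and 1 higher, and of the 21, 4 were lower and 3 higher. Of all genes with and without the core, 11.7% and 14.1% were lower there, and 25% and 22.6% were higher. A match describes the letters of the window and is not a binding site.

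In Panc89 the same comparison gave a mixed picture. Holoclone cells held more of the hexokinases HK1 and HK2, of PFKM, LDHB and the carrier SLC16A1, and less of SLC2A3, PFKP, PFKFB2, ENO2, SLC16A3, PDK4 and PGM1. These were 5 members (14.7%) called higher, where 22.4% of all genes tested were, and 7 (20.6%) called lower, where 13.3% were. The median member difference was −0.08, beside 0.09 over all genes tested. GAPDH, ENO1, ALDOA and PKM, the most abundant members, were not called. Leaving out replicate 1 of the Panc89 Holoclone gave 15 called members and a median of −0.29, and leaving out replicate 2 of the Panc89 Paraclone gave a median of 0.08. The calls and median of all genes under these settings are not given here, so the shifts are not read as particular to the members.

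HK2 was 28.6, 36.3 and 41 TPM in Panc89 Holoclone and 18.5, 17.3 and 17 TPM in Panc89 Paraclone libraries, with no overlap, and was higher by 0.95 ± 0.17 (adjusted p = 0.00037). HK1 was 60.5, 48.5 and 38.6 TPM against 32.8, 29.1 and 26.3 TPM, higher by 0.71 ± 0.14 (adjusted p = 0.00105). HKDC1 did not pass, at −0.81 ± 0.47. PFKM was 115, 86.4 and 62.3 TPM against 32, 64.8 and 38.8 TPM, and the groups overlapped at replicate 3 of the Holoclone and replicate 2 of the Paraclone, with a difference of 0.96 ± 0.23 (adjusted p = 0.00413). PFKP was lower, at −0.60 ± 0.16 (adjusted p = 0.00799). PFKFB2 was 10.4, 9.60 and 11.3 TPM in Holoclone and 27.5, 14.3 and 20.2 TPM in Paraclone libraries, lower, at −0.88 ± 0.20 (adjusted p = 0.00291).

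The lactate genes of Panc89 differed by isoform. SLC16A3 was 294, 276 and 291 TPM in Holoclone and 959.7, 726 and 982 TPM in Paraclone libraries, far apart and lower, at −1.62 ± 0.21 (adjusted p = 2.17e-05). SLC16A1 was 69.9, 108 and 124 TPM against 46.2, 49.9 and 47.7 TPM, higher by 1.02 ± 0.16 (adjusted p = 0.000137). SLC16A7 did not pass, at −0.04 ± 0.17. LDHB was 1568, 1284 and 1237 TPM against 684, 1354 and 807 TPM and was called higher, by 0.58 ± 0.19 (adjusted p = 0.0282). The LDHB groups overlapped through replicate 2 of the Paraclone, and the call was lost in a fit of those groups alone (adjusted p = 0.162) and without replicates 1 and 2 of the Holoclone (0.47 and 0.62, adjusted p = 0.0987 and 0.0501) or 1 and 3 of the Paraclone (0.37 and 0.49, adjusted p = 0.155 and 0.109), each left out singly. LDHA gave 866, 420.1 and 302 TPM against 616, 1046 and 653 TPM, and its −0.64 ± 0.36 did not pass.

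Of the remaining calls, ENO2 was 11.4, 3.73 and 1.52 TPM in Panc89 Holoclone and 26.7, 10.8 and 16.7 TPM in Paraclone libraries, lower, at −1.77 ± 0.46 (adjusted p = 0.00715), with an overlap at replicate 1 of the Holoclone. SLC2A3 was 9.16, 11.2 and 10.6 TPM against 21.3, 32.6 and 34.3 TPM, lower, at −1.40 ± 0.20 (adjusted p = 6.3e-05) at levels well above those of Panc1. PDK4 was 2.53, 0.798 and 0.597 TPM against 5.17, 3.66 and 4.93 TPM, lower, at −1.36 ± 0.24 (adjusted p = 0.000376). PGM1 was 59, 40.9 and 33.7 TPM against 68, 117 and 80.5 TPM, lower, at −0.97 ± 0.19 (adjusted p = 0.000858). In Panc89 Holoclone replicate 1, PDK4 and ENO2 stood above the other 2 Holoclone libraries. Both PFKM and ENO2 lost the call when the Panc89 clone groups were fitted alone (adjusted p = 0.0684 and 0.0746).

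GAPDH was 6265, 4495 and 4085 TPM in Panc89 Holoclone and 3657, 7168 and 4571 TPM in Paraclone libraries, so the groups overlapped widely and the difference was −0.02 ± 0.22. SLC2A1 (−0.19 ± 0.14), PFKFB3 (0.09 ± 0.17), ALDOA (0.55 ± 0.22), ALDOC (−0.35 ± 0.35) and PKM (−0.08 ± 0.24) did not pass either. The further members below the threshold in Panc89 were GPI, PFKL, PFKFB4, TPI1, PGK1, PGAM1, BPGM, ENO1, ENO3, PDK1, PDK2, PDK3 and PDHA1, with differences between −0.83 for PFKFB4 and 0.33 for PGAM1. A value that misses the threshold does not show equal levels, least of all in these Panc89 groups.

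Set side by side, the clone comparisons of the lines shared no library. SLC2A3, SLC16A3, PDK4 and PGM1 were called lower in the Holoclone of both lines, 12 members were called lower in the Panc1 Holoclone and not called in Panc89, and 7 were called in neither line. The Panc1 difference of SLC2A3, at low TPM, turned to 0.91 (adjusted p = 0.112) once its pseudogenes and near-identical paralogs were added. Of all genes tested, 2.09% were called lower in both, 5.73% lower in the Panc1 Holoclone alone and 41.5% in neither, and 2.15% and 2.77% were called in opposite directions. HK2 was called in opposite directions, lower in the Panc1 Holoclone and higher in the Panc89 Holoclone, and PFKFB2 higher in the Panc1 Holoclone and lower in the Panc89 Holoclone. The direct test of the difference, the Panc89 clone change minus the Panc1 clone change, called 12 members (35.3%) higher, where 14.8% of all genes tested were, and 6 (17.6%) lower, where 20.4% were. The median member value was 0.37, beside −0.11 over all genes tested. HK2 had 2.54 ± 0.24 (adjusted p = 8.95e-07) and PFKFB2 −1.83 ± 0.28 (adjusted p = 0.000138). Further positive values were 2.68 ± 0.50 (adjusted p = 0.00064) for ALDOC, 1.93 ± 0.31 (adjusted p = 0.000166) for ALDOA, 1.23 ± 0.24 (adjusted p = 0.00107) for PFKFB3, 1.22 ± 0.31 (adjusted p = 0.00649) for GAPDH and 1.20 ± 0.19 (adjusted p = 0.000206) for SLC2A1.

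LDHA and PGK1, lower in Panc1 and not called in Panc89, did not differ past the threshold between the lines, with 0.39 ± 0.50 (adjusted p = 0.594) and 0.34 ± 0.25 (adjusted p = 0.319). The same held for GPI at 0.78 ± 0.31 (adjusted p = 0.0642) and for PFKFB4 at 0.36 ± 0.49 (adjusted p = 0.612). SLC16A3, lower in both lines, had a larger drop in Panc89, with −0.91 ± 0.29 (adjusted p = 0.025), which lost the call under both rescalings (−0.77 and −0.78, adjusted p = 0.0588 and 0.0665). PDK4 had the larger drop in Panc1, with 1.20 ± 0.34 (adjusted p = 0.0116).

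**Figure D3:**
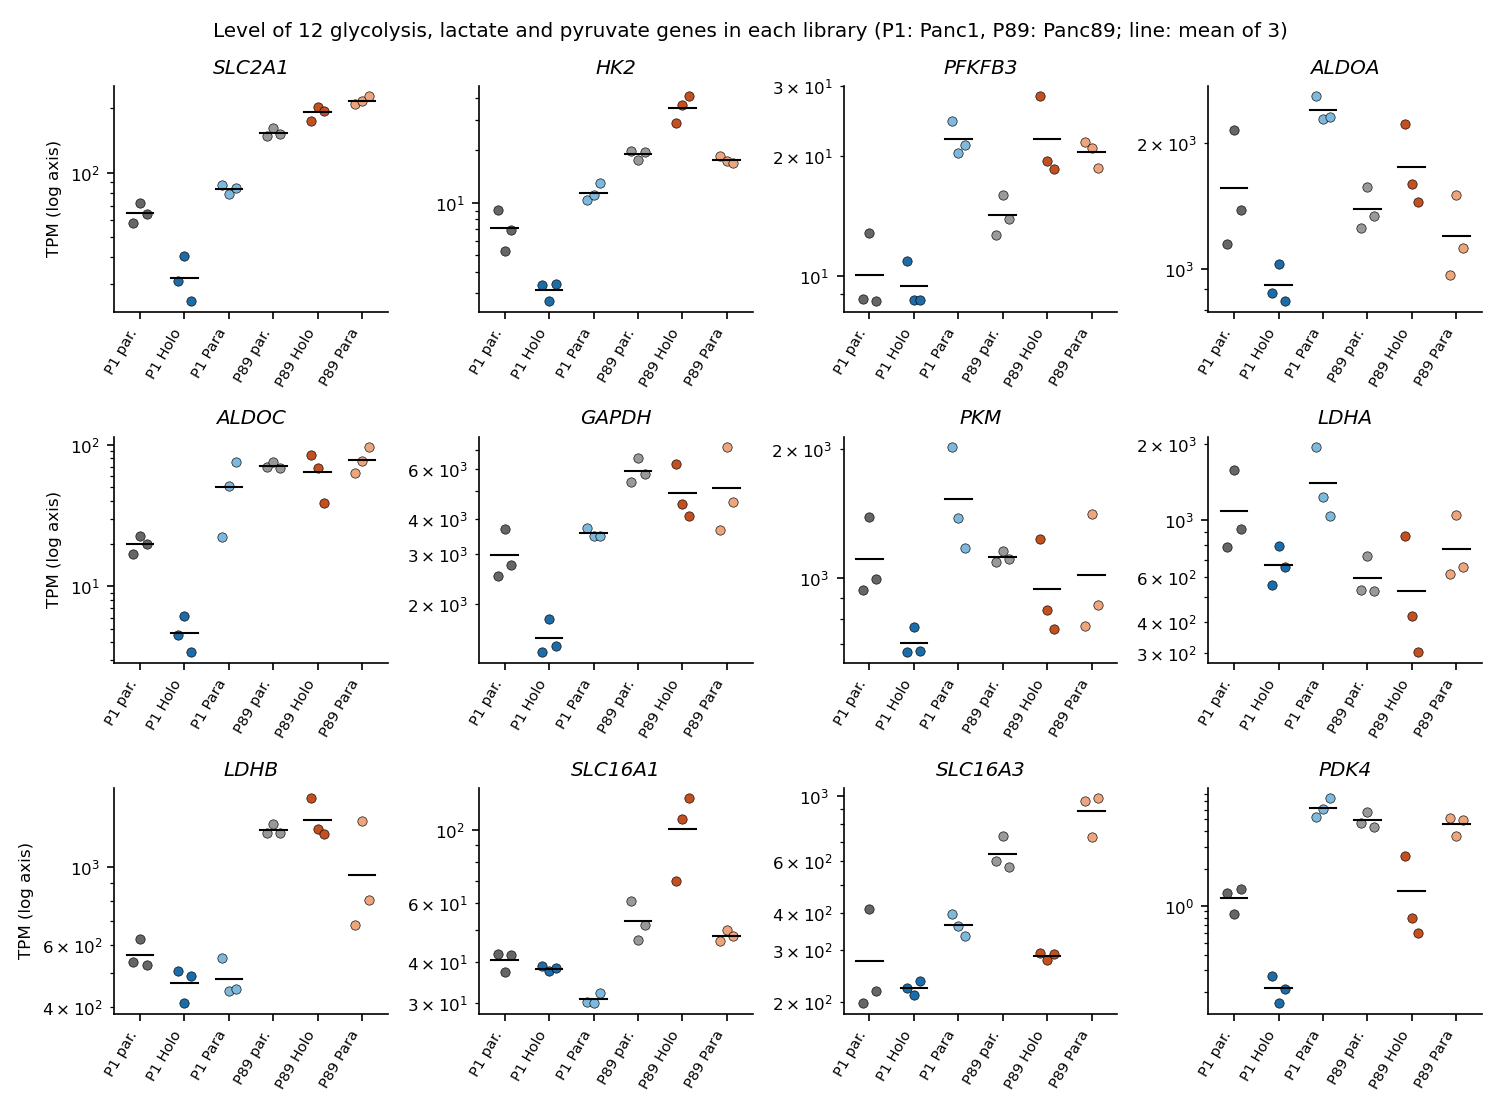
Each panel gives the TPM of 1 gene in the 18 libraries on a log axis of its own, with 1 point per library, grouped by line and cell variant, and a line at the mean of 3. HK2 shows the crossing pattern, 2.69 to 3.38 TPM in Panc1 Holoclone and 28.6 to 41.0 TPM in Panc89 Holoclone libraries with both Paraclone groups between them, and ALDOC the low Panc1 Holoclone group at 3.40 to 6.17 TPM.

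Between the lines, Panc89 cells held more of the glucose transporters SLC2A1 and SLC2A3, HK2, PFKL, TPI1, LDHB and the carriers SLC16A1 and SLC16A7 in all 3 cell variants, and less of PFKP, PGK1, PGAM1, BPGM, ENO1 and PDK3 in all 3. These are 8 (23.5%) and 6 (17.6%) of the 34 members, where 17.8% and 21.6% of all genes tested were called so in all 3. In parental cells 14 members (41.2%) were called higher in Panc89 and 11 (32.4%) lower, where 27.5% and 38.5% of all genes tested were. Between the Holoclones 15 (44.1%) were higher and 11 (32.4%) lower, against 29.3% and 36.4%, and between the Paraclones 10 (29.4%) were higher and 10 (29.4%) lower, against 30.2% and 30.4%. The median member differences were 0.21, 0.32 and 0.20, beside −0.18, −0.11 and −0.00293 over all genes tested. GPI, PFKFB4 and PGM1 were not called in any variant, and neither were 15.3% of all genes tested.

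**Figure D4:**
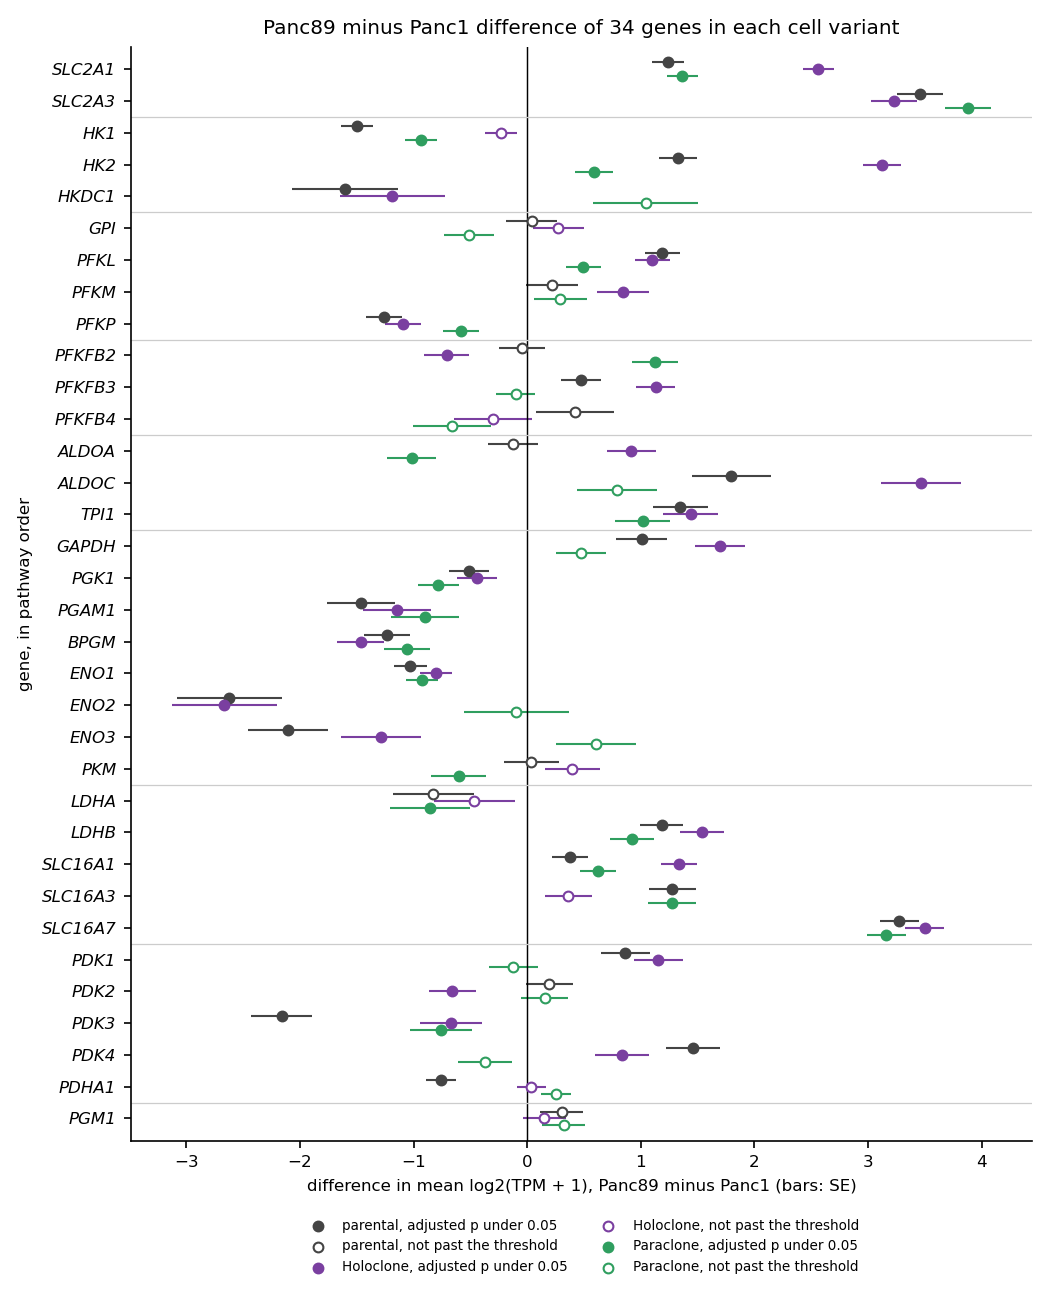
Points give the Panc89 minus Panc1 difference in mean log2(TPM + 1) for the 34 genes in pathway order, in parental cells (dark grey), Holoclones (purple) and Paraclones (green), with bars for the SE and filled points past an adjusted p of 0.05. For 8 genes all 3 points are filled and above 0, among them SLC2A3 at 3.23 to 3.88, and for 6 genes all 3 are filled and below 0.

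SLC2A3 was 24.2, 34.2 and 19.8 TPM in parental Panc89 and 1.24, 1.17 and 1.85 TPM in parental Panc1 libraries, higher by 3.46 ± 0.20 (adjusted p = 5.03e-10). With its pseudogenes and near-identical paralogs added, the SLC2A3 difference was 2.41 (adjusted p = 0.000139) in parental cells, 1.29 (adjusted p = 0.0157) between Holoclones and 3.63 (adjusted p = 2.36e-06) between Paraclones. SLC2A1 was 148, 161 and 151 TPM against 57.7, 72.2 and 64.1 TPM, higher by 1.24 ± 0.14 (adjusted p = 9.52e-07) in parental cells and by 2.56 and 1.36 in Holoclones and Paraclones. HK2 was higher by 1.33, 3.13 and 0.59 in the 3 variants, and HK1 was lower in parental cells at −1.50 ± 0.14 (adjusted p = 1.52e-07) and in Paraclones at −0.94 ± 0.14 (adjusted p = 2.98e-05). PFKL was higher by 1.19, 1.10 and 0.50, the last at 0.33 (adjusted p = 0.0669) without Panc89 Paraclone replicate 2, and PFKP lower, at −1.26, −1.09 and −0.58, in parental, Holoclone and Paraclone cells.

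SLC16A7 was 8.99, 7.84 and 10.3 TPM in parental Panc89 libraries and listed at 0, 0.104 and 0 TPM in parental Panc1, where 2 libraries were at 0. All 9 Panc89 libraries held between 7.84 and 13.7 TPM of it, and no Panc1 library more than 0.421 TPM. LDHB was 1252, 1322 and 1251 TPM against 538, 624 and 527 TPM in parental cells, higher by 1.18 ± 0.19 (adjusted p = 5.61e-05), while LDHA in the same libraries was 532, 724 and 528 TPM against 782, 1572 and 925 TPM and missed the threshold at −0.83 ± 0.36 (adjusted p = 0.0519). TPI1 was 1318, 1467 and 1329.9 TPM against 425, 750.3 and 487 TPM, higher by 1.35 ± 0.24 (adjusted p = 0.000159).

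In the payoff phase the direction turned over between neighbouring steps. GAPDH was higher in Panc89 parental cells, 5415, 6543 and 5752 TPM against 2505, 3664 and 2740.0 TPM, by 1.01 ± 0.22 (adjusted p = 0.000852), and by 1.70 in Holoclones, and was not called in Paraclones. ENO1 was lower, 1428, 1556 and 1404 TPM against 2963, 3123 and 2865 TPM, at −1.03 ± 0.14 (adjusted p = 1.05e-05), and at −0.81 and −0.93 in the clones. PGAM1 was 230.3, 275 and 229 TPM against 598, 814 and 634 TPM, lower, at −1.47 ± 0.30 (adjusted p = 0.000453). BPGM was lower, at −1.23, −1.47 and −1.06, and PGK1 at −0.51, −0.44 and −0.78, in parental, Holoclone and Paraclone cells. The PGK1 calls in parental cells and Holoclones were lost under median-of-ratios scaling (−0.26 and −0.25, adjusted p = 0.152 and 0.168) and when single libraries were left out, with values from −0.48 to −0.44 in parental cells and from −0.48 to −0.37 in Holoclones. The PGAM1 call in Paraclones, at −0.90, was lost without Panc1 Paraclone replicate 1 (−0.66, adjusted p = 0.0883) and without Panc89 Paraclone replicates 1 and 3 (−0.64 and −0.77, adjusted p = 0.0918 and 0.0662). ENO2 and ENO3 were lower in parental cells at −2.62 ± 0.46 (adjusted p = 0.000117) and −2.11 ± 0.35 (adjusted p = 6.85e-05) and in Holoclones at −2.67 and −1.29, and neither was called in Paraclones.

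2 members were called in both directions, depending on the variant compared. ALDOA was higher in Panc89 between the Holoclones, by 0.92 ± 0.22 (adjusted p = 0.00154), and lower between the Paraclones, at −1.02 ± 0.22 (adjusted p = 0.000751), with −0.13 ± 0.22 in parental cells. PFKFB2 was lower between the Holoclones, at −0.71 ± 0.20 (adjusted p = 0.00568), and higher between the Paraclones, by 1.12 ± 0.20 (adjusted p = 0.000161). ALDOC was higher in parental cells by 1.80 ± 0.35 (adjusted p = 0.000314) and between Holoclones by 3.46 ± 0.35 (adjusted p = 3.5e-07), and PFKFB3 by 0.47 ± 0.17 (adjusted p = 0.0248) and 1.13 ± 0.17 (adjusted p = 3.04e-05). The parental PFKFB3 call was lost without Panc1 parental replicates 1 and 3 or Panc89 parental replicate 2 (0.38 to 0.39, adjusted p = 0.0942 to 0.0987). HKDC1 was lower in the same variants, at −1.61 ± 0.47 (adjusted p = 0.00657) and −1.19 ± 0.47 (adjusted p = 0.0349), and the Holoclone call was lost under both rescalings (−1.09 and −1.04, adjusted p = 0.0518 and 0.0609) and without Panc1 Holoclone replicate 2 (−0.80, adjusted p = 0.169). PKM and LDHA were lower in Panc89 between the Paraclones, at −0.60 ± 0.24 (adjusted p = 0.0411) and −0.86 ± 0.36 (adjusted p = 0.0485), and both calls were lost without Panc1 Paraclone replicate 1 (−0.38 and −0.60, adjusted p = 0.201 and 0.197), Panc89 Paraclone replicate 1 (−0.43 and −0.71, adjusted p = 0.174 and 0.147) and Panc89 Paraclone replicate 3 (−0.51 and −0.76, adjusted p = 0.128 and 0.13). Both lie so near the threshold that leaving out libraries of other groups also lost them.

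SLC16A3 was higher in Panc89 by 1.28 ± 0.21 (adjusted p = 5.61e-05) in parental cells and 1.27 ± 0.21 (adjusted p = 6.66e-05) in Paraclones, and did not pass in Holoclones at 0.36 ± 0.21. SLC16A1 was higher by 0.37, 1.34 and 0.62 in the 3 variants, and the call in parental cells (adjusted p = 0.0492) was lost in 19 of 27 settings tried. PFKM was called between the Holoclones, higher by 0.84 ± 0.23 (adjusted p = 0.00468). Among the kinases, PDK3 was 0.580, 0.816 and 0.619 TPM in parental Panc89 and 5.93, 8.36 and 5.42 TPM in parental Panc1 libraries, lower, at −2.16 ± 0.27 (adjusted p = 3.89e-06). The PDK3 calls between Holoclones and Paraclones, at −0.67 and −0.76, were lost in several settings, with −0.47 (adjusted p = 0.175) without Panc1 Holoclone replicate 1 and −0.54 (adjusted p = 0.123) without Panc89 Paraclone replicate 1. PDK1 and PDK4 were higher in parental cells by 0.86 ± 0.22 (adjusted p = 0.00231) and 1.46 ± 0.24 (adjusted p = 5.77e-05) and in Holoclones by 1.15 and 0.83. Without Panc89 Holoclone replicate 1 the PDK4 difference between Holoclones was 0.48 (adjusted p = 0.0256). PDK2 was lower between the Holoclones at −0.66 ± 0.21 (adjusted p = 0.0108), a call lost without Panc89 Holoclone replicate 3 (−0.40, adjusted p = 0.0717). PDHA1 was lower in parental Panc89 cells, at −0.76 ± 0.13 (adjusted p = 8.18e-05), and was not called between the clones.

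Within enzyme families, the share held by each isozyme describes the composition of a step apart from its total level. These shares are percentages of the family's summed TPM, as mean ± SD over 3 libraries, and are given without a test. LDHA held 64.9% ± 6.25 of lactate dehydrogenase TPM in parental Panc1, 58.6% ± 6.90 in the Panc1 Holoclone and 73.8% ± 4.07 in the Panc1 Paraclone. In Panc89 it held 31.6% ± 3.26, 26.6% ± 8.16 and 45.2% ± 1.96 in the same variants, so LDHB was the major form in every Panc89 library. In both lines the LDHA share was higher in every Paraclone library than in any Holoclone library.

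HK2 held 8.47% ± 2.11, 4.87% ± 0.378 and 16.5% ± 1.27 of hexokinase TPM in Panc1 parental, Holoclone and Paraclone libraries, against 42.9% ± 1.27, 41.7% ± 9.36 and 35.9% ± 1.89 in Panc89. PFKP was the main phosphofructokinase in Panc1, at 66.2% to 72.3% in all libraries. In Panc89 its share was 32.5% ± 4.19 in parental, 34.3% ± 1.94 in Holoclone and 51.7% ± 4.43 in Paraclone libraries, with PFKL at 43.7% ± 3.10 in parental cells. The family total was close between the Panc89 clones, at 273.6 ± 64.0 and 273.9 ± 49.3 TPM. PFKFB2 and PFKFB3 changed places between the Panc1 clones, with PFKFB2 at 58.2% ± 2.05 in the Holoclone and 22.6% ± 5.55 in the Paraclone, and PFKFB3 at 31.0% ± 2.98 and 56.5% ± 4.84. In Panc89, PFKFB3 held 62.6% ± 2.96 in the Holoclone and 44.9% ± 5.02 in the Paraclone, and PFKFB2 30.4% ± 5.97 and 44.3% ± 8.96, so that the shares in the Paraclone lay within 1 SD of each other.

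SLC16A1 held 25.1% ± 5.77 of monocarboxylate carrier TPM in the Panc89 Holoclone and 5.16% ± 1.02 in the Panc89 Paraclone, and 14.6% ± 0.597 and 7.84% ± 0.869 in the Panc1 clones. PDK2 held 84.8% ± 1.31 of kinase TPM in the Panc1 Holoclone against 50.7% ± 2.26 in the Panc1 Paraclone, and PDK4 0.467% ± 0.0772 against 16% ± 1.12. The summed kinase TPM of these groups was 45.7 ± 4.52 and 38.7 ± 4.31. In the Panc89 clones PDK2 held 61.7% ± 11.9 and 58.5% ± 5.74.

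**Figure D5:**
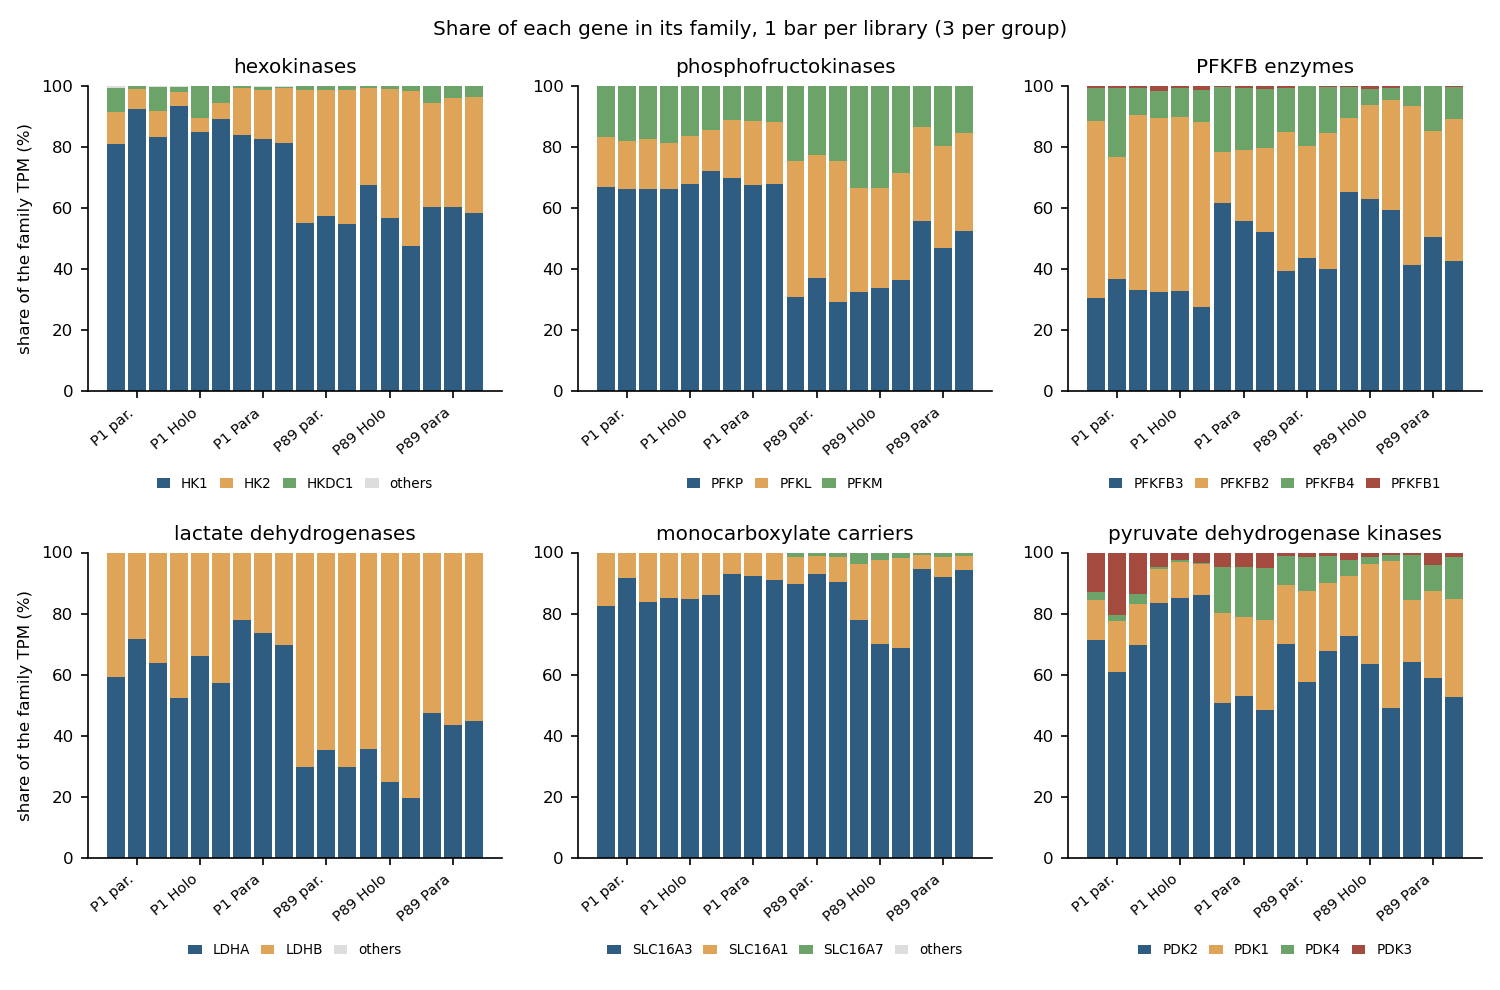
Each panel is 1 enzyme family, and each stacked bar gives the percentage of the family's summed TPM held by each gene in 1 library, with 3 libraries for each of the 6 groups and genes under 1% throughout pooled as others. LDHA holds 52.5% to 77.9% in the Panc1 libraries and 19.6% to 47.4% in the Panc89 libraries.

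Parental cells, which hold many colony types, lay between the clones for most members in Panc1. The mean of the parental libraries was between the clone means for 22 members and above both for 12, with none below both. In Panc89 it was between the clones for 14, above both for 11 and below both for 9. The placement went by means alone, so small differences counted like large ones. It was not counted over all genes, so these counts do not set the members apart. HK2 in parental Panc1 was 9.12, 5.23 and 7.0 TPM, between its clones, and HK2 in parental Panc89 19.7, 17.7 and 19.6 TPM, also between by its mean. PDK3 in parental Panc1, at 5.93, 8.36 and 5.42 TPM, was above both clones in every library.

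Lists outside the 34 genes, set by function, give the surroundings of the pathway. Of 20 tested hypoxia-responsive genes outside glycolysis, 2 were higher and 7 lower in the Panc1 Holoclone, with a median of −0.55, and 5 were higher and 7 lower in the Panc89 Holoclone, with a median of −0.29. The shares of all genes tested that were higher and lower, 27.4% and 9.97% in Panc1 and 22.4% and 13.3% in Panc89, stand beside the counts of every list here. ANGPTL4, a secreted lipase inhibitor, was lower in both, at −3.10 ± 0.27 (adjusted p = 3.47e-07) in Panc1 and −2.42 ± 0.27 (adjusted p = 4.99e-06) in Panc89. CA9, a carbonic anhydrase used as a hypoxia marker, was lower in the Panc89 Holoclone at −3.34 ± 0.32 (adjusted p = 1.04e-06), while STC2, a secreted glycoprotein, was higher there by 1.56 ± 0.47 (adjusted p = 0.0163). Among 12 tested hypoxia and glucose regulators, 3 were higher and 1 lower in the Panc1 Holoclone and 2 were higher in the Panc89 Holoclone. MLXIP, a glucose-responsive factor, and HIF1AN, which inhibits HIF1A, were among those higher in the Panc1 Holoclone, by 0.87 ± 0.14 (adjusted p = 0.000193) and 0.67 ± 0.10 (adjusted p = 9e-05). HIF1A, the oxygen-regulated transcription factor subunit, was 68.8, 70.7 and 77.6 TPM in Panc1 Holoclone and 160.5, 177 and 198 TPM in Panc1 Paraclone libraries, lower, at −1.29 ± 0.15 (adjusted p = 5.81e-06). HIF1A is regulated largely at the protein level, which was not measured. MYC was higher in the Panc89 Holoclone by 0.52 ± 0.15 (adjusted p = 0.0122).

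The pentose phosphate pathway, which branches from glucose 6-phosphate, had 3 lower and 1 higher of 8 tested genes in the Panc1 Holoclone. TKT, the transketolase, was lower, at −1.20 ± 0.19 (adjusted p = 0.000168). In the Panc89 Holoclone 2 of the 8 were higher, TALDO1 by 0.89 ± 0.11 (adjusted p = 1.34e-05) and RPE by 0.33 ± 0.11 (adjusted p = 0.0284). Of 7 tested glycogen genes, 2 were higher and 3 lower in the Panc1 Holoclone, and 1, PYGL, was lower in the Panc89 Holoclone. Of 9 tested genes of mitochondrial pyruvate entry, 1 was higher and 1 lower in the Panc1 Holoclone and 1 higher in the Panc89 Holoclone. Between the lines PDP1, the phosphatase that reverses the PDK kinases, was higher in Panc89 by 4.20 ± 0.18 (adjusted p = 1.37e-11) in parental cells.

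Of 40 further glycolysis and gluconeogenesis genes, 18 were tested, with 4 higher and 3 lower in the Panc1 Holoclone and 8 higher and 3 lower in the Panc89 Holoclone. Their medians were 0.10 and 0.38. PC, pyruvate carboxylase, was lower in the Panc1 Holoclone at −0.79 ± 0.15 (adjusted p = 0.000709). SLC2A9, a urate and hexose transporter, was higher in the Panc89 Holoclone by 3.55 ± 0.16 (adjusted p = 3.97e-10), and EMB, a partner protein of monocarboxylate carriers, by 1.69 ± 0.25 (adjusted p = 6.9e-05).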

How the data were processed

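RNA of 18 cell line libraries was read from 1 deposited table. Per the study's methods, the authors quantified stranded mRNA reads with kallisto 0.46.1 against Ensembl GRCh38 release 106 and summarised them per gene with tximport. The deposited values are log2 of scaled TPM plus 1, so no read counts were used here, the depth is unknown, and no count test or counting interval was possible. The study's own count-based test was replaced by limma 3.58.1 in R 4.3.3.

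A linear model with 6 group means was fitted to all 18 libraries, which share 1 estimate of the spread, with a mean-variance trend, for 16093 genes at 1 TPM or more in at least 3 libraries. Tests were two-sided, with Benjamini-Hochberg adjustment over all genes and a threshold of 0.05. Replicates are passages, and p-values measure the spread between them, pooled over the 6 groups. The median SD of a member was 0.336 and 0.323 in the Panc89 Holoclone and Paraclone, against 0.143 and 0.135 in those of Panc1. The shared SE can thus understate the spread in the Panc89 clones. The members and lists were chosen with earlier results of these data known. All members are named, and in each other list at most 3 genes per comparison could be named, taken by largest absolute difference from called genes whose libraries did not overlap between groups and whose higher group averaged 10 TPM or more. After subtraction of each group mean, same-numbered replicates of different groups of a line correlated between −0.318 and 0.19. Of these 18 pairs 3 were above 0.1, so the fit has no pairing. Promoter windows came from RefSeq tables on GRCh38.p14. The script was tested on simulated data. Alternatives were another pseudocount, no filter, separate fits, replicate blocks, rescalings, removal of mitochondrially encoded genes, addition of pseudogenes, stricter thresholds and each library left out.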

Additional observations from a re-analysis of the deposited data

Results flagged for a closer look

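For 18 members the clone difference, Holoclone minus Paraclone, differed between Panc89 and Panc1 in a direct limma test of the interaction, adjusted over all genes. Of the 34 members 12 (35.3%) were higher and 6 (17.6%) lower, where 14.8% and 20.4% of all genes tested were. Values are the Panc89 difference minus the Panc1 difference in log2(TPM + 1), ± SE.

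Among transporters and hexokinases, SLC2A1 had 1.20 ± 0.19 (adjusted p = 0.000206), HK1 0.70 ± 0.20 (adjusted p = 0.0124), HK2 2.54 ± 0.24 (adjusted p = 8.95e-07) and HKDC1 −2.23 ± 0.66 (adjusted p = 0.0157). Around phosphofructokinase, PFKL had 0.61 ± 0.22 (adjusted p = 0.043), PFKFB2 −1.83 ± 0.28 (adjusted p = 0.000138) and PFKFB3 1.23 ± 0.24 (adjusted p = 0.00107). Of the aldolases, ALDOA had 1.93 ± 0.31 (adjusted p = 0.000166) and ALDOC 2.68 ± 0.50 (adjusted p = 0.00064).

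In the payoff phase GAPDH had 1.22 ± 0.31 (adjusted p = 0.00649), ENO2 −2.57 ± 0.65 (adjusted p = 0.00623), ENO3 −1.89 ± 0.49 (adjusted p = 0.0076) and PKM 1.00 ± 0.34 (adjusted p = 0.0328). Of the lactate carriers, SLC16A1 had 0.72 ± 0.23 (adjusted p = 0.0215) and SLC16A3 −0.91 ± 0.29 (adjusted p = 0.025). Of the kinases, PDK1 had 1.28 ± 0.31 (adjusted p = 0.0042), PDK2 −0.82 ± 0.29 (adjusted p = 0.0416) and PDK4 1.20 ± 0.34 (adjusted p = 0.0116). The PFKL call was lost when any of several single libraries was left out, with 0.43 (adjusted p = 0.0955) without Panc89 Holoclone replicate 1, and the PKM value without the same library was 0.79 (adjusted p = 0.0779). The PDK2 call was lost likewise, with −0.56 (adjusted p = 0.102) without Panc89 Holoclone replicate 3, and SLC16A1 was at 0.55 (adjusted p = 0.0555) without that library.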

How the results depend on the processing

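Of 122 pairs of a member and a comparison that were called, 94 held in each of 27 alternative fits, 27 lost the call in at least 1 and 1 reversed. Stricter thresholds are apart from these, with 94 pairs left at an adjusted p under 0.01 and 75 with an absolute difference over 1. The reversal was SLC2A3 in the Panc1 clones, at 0.91 once pseudogenes and near-identical paralogs were added. By setting, 13 calls were lost with no filter, 11 in fits of the groups alone, 7 under each rescaling, 1 without mitochondrially encoded genes and 0 with a pseudocount of 0.1 TPM. Leaving out 1 library lost 117 of 2196 calls checked. With replicate numbers as a block within each line, 16 calls were lost, and the median member difference between parental lines was 0.086. PDK4 between the Holoclones was then at 0.55 (adjusted p = 0.139). The block over both lines lost 1. The numbers are shared labels and do not pair the passages.

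The median member difference in the Panc1 clones was −0.63 with a pseudocount of 0.1 TPM, −0.77 under upper quartile and −0.79 under median-of-ratios scaling, −0.44 with pseudogenes added, and −0.60 to −0.44 with 1 library left out. Between parental lines it was 0.37 and 0.45 under the rescalings. Between Holoclones it ranged from 0.094 to 0.41, and for the interaction from 0.19 to 0.58, with 1 library left out. At an adjusted p under 0.01 the interaction kept 10 calls, 7 higher and 3 lower, beside 1615 and 2086 of all 16093 genes tested. With an absolute difference over 1, 12 members passed in the Panc1 clones, 5 in the Panc89 clones and 8 between Paraclones. These were 2 higher and 10 lower, 1 and 4, and 6 and 2. Of all 16093 genes tested, 1146 were higher and 714 lower in the Panc1 clones at that cut. The counts were 1264 and 860 in the Panc89 clones, and 2640 and 2631 between Paraclones. Rescaling moved the share of all calls that were higher from 73.3% to 51.3% and 47.7% in the Panc1 clones, from 62.8% to 52.5% and 49.3% in the Panc89 clones and, between parental lines, from 41.6% to 48.3% and 51.8%. Depth is unknown, so no limit from counting can be given, and each clone group is 1 clone.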

Other observations

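PCK2, the mitochondrial phosphoenolpyruvate carboxykinase, was looked at after its values were seen, and its relation to the summed level was not tested. In the limma fit PCK2 was higher in the Panc89 Holoclone than in the Panc89 Paraclone, by 1.53 ± 0.48 (adjusted p = 0.0203). It was also higher there than in the Panc1 Holoclone, by 1.30 ± 0.48 (adjusted p = 0.0251). In 4 of the 6 groups the library with the highest summed level of the 34 genes had the lowest PCK2 of its group, and in the other 2 groups it had the highest. How many of all genes tested show the same order is not given here, so these counts do not set PCK2 apart. PCK2 was 164, 52.3 and 164 TPM in parental Panc1 libraries, where replicate 2 had the highest sum. It was 35.4, 89.7 and 87.5 TPM in Panc1 Paraclone libraries, where replicate 1 had the highest sum. In Panc89 it was 186, 296 and 387 TPM in Holoclone libraries, with the highest sum in replicate 1, and 147, 47.1 and 125 TPM in Paraclone libraries, with the highest sum in replicate 2. The opposite order was found in the Panc1 Holoclone, at 100.2, 135 and 103 TPM with the highest sum in replicate 2, and in parental Panc89, at 191, 203 and 191 TPM with the highest sum in replicate 2. The sums of these last groups spread least in each line, and whether that bears on the order was not tested. These libraries are passages of the same cells, and what differed between the passages was not tested.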
